A study of Triticum aestivum with 72 samples.

Results

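The probe sets described here are those whose level rose and fell with the wheat small heat shock protein gene hsp16.9A (LOC543277) over 72 arrays of developing seed. They were chosen on the measured values themselves: a probe set entered when its log2 intensity had a Pearson correlation (r) of at least 0.75 with that of hsp16.9A over all arrays. Of 61179 probe sets outside the array maker's AFFX controls, 196 reached the threshold. Taking away hsp16.9A and the other probe sets of 11 listed gene symbols, 14 in all, left 182 members. Only 3 of the 182 carry a gene symbol in the supplied annotation, and the other 179 are named by probe set alone.

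Small heat shock proteins are chaperones that hold unfolding proteins in a soluble state, so that other chaperones that use ATP can refold them later. In plants their genes are nearly silent at moderate temperature and are transcribed strongly in heat, under the control of heat shock factors, and some are also switched on during seed development. Wheat is polyploid, so one probe set can read near-identical gene copies of several subgenomes, and probe sets with the suffix _x_at or _s_at can also read related genes.

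The study asked how far transcript levels differ between related wheat genotypes. It measured 36 lines from the cross RL4452 × AC Domain, all at 1 stage, 5 days after anthesis, with 2 arrays a line. The plants were field grown near Winnipeg in a lattice design with 3 replications, spikes were tagged when anthers showed, and no treatment was given, so no group is a heated or an unheated control. In 35 lines the arrays are numbered replicate 3 and replicate 1, and in H9 replicate 3 and replicate 2. The labels do not say whether these numbers are the field replications or how many plants gave 1 RNA sample, so a p-value here measures the spread between 2 such samples. The replicate 3 array of G32 is placed in its line by its title alone.

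In bulk seed, fewer cells of a type and less RNA per cell cannot be told apart. The arrays' median intensities lay between 39.9 and 43.6, and the number of arrays limits the precision. Endosperm transcripts were measured in these seeds, with mean log2 levels of 9.03 for Wx-A1 (granule-bound starch synthase) and 11.2 for AGP-S (small subunit of ADP-glucose pyrophosphorylase). Transcripts of green layers averaged 12.5 for PsbO and 12.2 and 9.30 for the 2 probe sets of PsbP, and the beta-amylase BMY1 averaged 12.7. The 9 gliadin and glutenin probe sets averaged between 3.17 and 6.67, and the 4 probe sets of the anther gene raftin between 3.55 and 5.73. Of these 19 marker probe sets none was a member, and their r with hsp16.9A lay between -0.236 and 0.383.

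The lines were split, after the data had been seen, by how far their 2 arrays differed from each other, and 12 were called unmatched. The difference was read from 102 bimodal probe sets, searched for with the members and hsp16.9A left out. In such a probe set the arrays form a high and a low cloud, each of 12 or more arrays, and no array lies in the 0.7 log2 units or more between them. In D15, DH91, J15, G32, C25, F36, A40, E5, F38a, B11, A91 and H5 the 2 arrays lay on opposite sides of the gap in at least 32.4% of these probe sets. The cutoff was 30%, and the highest share in the 24 matched lines was 26.5%, so no wide gap parted the 2 groups. Results on lines are therefore given for the 24 matched lines as well as for all 36.

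hsp16.9A itself spanned 9.79 log2 units, with a lowest level of 3.78 in H8 replicate 3, a median of 5.36 and a highest level of 13.57 in B68 replicate 3. Its distribution was uneven, with 18 arrays above the middle of that range (8.67) and 54 below it. The members followed it as 1 body. Their first principal component held 74.0% of their variance and the second 5.78%, and the median r between 2 members was 0.742. These shares follow in part from the selection, since every member had to move with the same probe set.

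**Figure D1:**
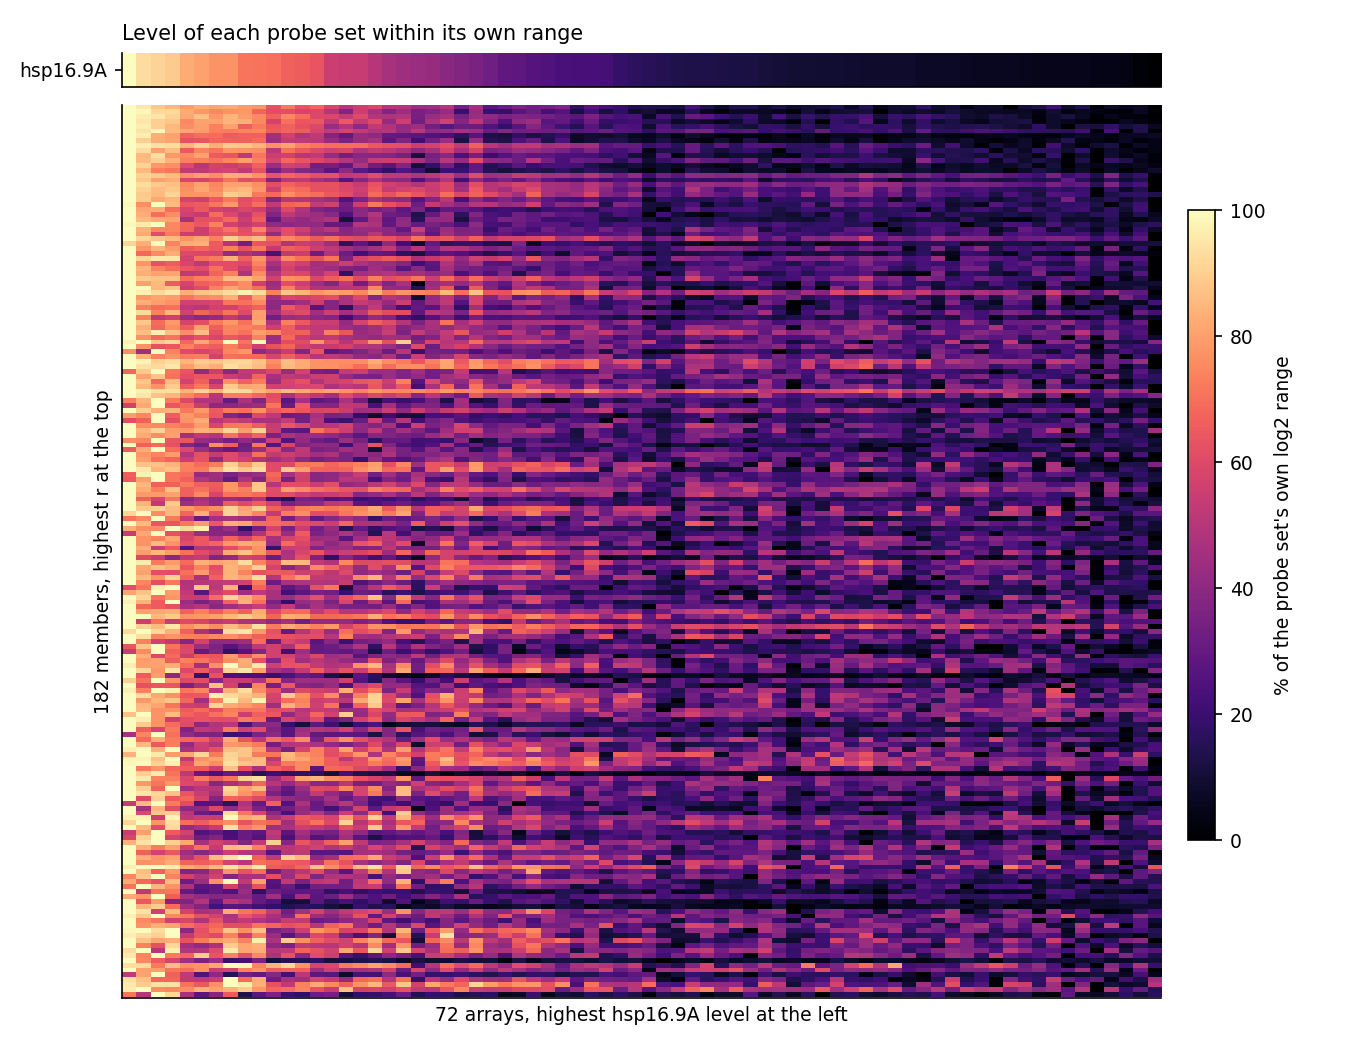
Level of hsp16.9A (top strip) and of the 182 members (rows, highest r at the top) in each of the 72 arrays (columns, highest hsp16.9A level at the left), as a percentage of the probe set's own log2 range. The brightest columns are at the left, where in B68 replicate 3 181 of the 182 members were over 50% of their own range.

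The upper end of almost every member's range came from few arrays. B68 replicate 3 held the highest value of 125 members, A91 replicate 3 of 31 and A77 replicate 3 of 11, and only 6 arrays held the highest value of any member. The lowest values were spread over 29 arrays, led by H8 replicate 3 with 43 members, B65 replicate 1 with 26 and D15 replicate 1 with 23. In 4 arrays, those of replicate 3 in B68, A77, A91 and F29, all 182 members were above their own means. That members are high where hsp16.9A is highest follows from the rule that chose them.

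Members ranged over a median of 4.09 log2 units (1.36 to 9.21), a median ratio of highest to lowest array of 17.1. At least 4 log2 units were covered by 93 of the 182 members (51.1%), against 905 of the 61179 probe sets (1.48%). A wide range helps a probe set to reach a high r, so this contrast is a description of the selection. Of the 138 probe sets on the array that ranged over at least 6 log2 units, 34 were members.

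The member closest to hsp16.9A was Ta.202.1.S1_at, with r = 0.985 and a slope of 0.93 log2 units per log2 unit of hsp16.9A. It measured 4.23 in H8 replicate 3, a median of 5.92 and 13.44 in B68 replicate 3, a 592-fold span. Low and high arrays were the same ones as for hsp16.9A. TaAffx.73024.1.S1_at (r = 0.982) ran between 5.19 in G32 replicate 1 and 13.17 in B68 replicate 3, with a median of 6.09. Ta.14573.1.S1_at (r = 0.981) lay higher at its floor, at 6.54 in H8 replicate 3, with a median of 8.26 and a maximum of 13.22 in B68 replicate 3. Ta.8714.1.S1_at, Ta.28630.1.S1_at, Ta.27661.2.S1_at, Ta.2747.1.S1_at and Ta.8665.1.S1_at completed the 8 highest, with r between 0.964 and 0.974. All 8 peaked in B68 replicate 3, and their spans lay between 6.68 and 9.21 log2 units.

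Few members moved as steeply as hsp16.9A. The median slope was 0.23 log2 units per log2 unit, 23 members had a slope of at least 0.5 and 68 a slope under 0.2. The steepest after Ta.202.1.S1_at were Ta.24801.1.S1_at (0.84), TaAffx.73024.1.S1_at (0.81), Ta.8714.1.S1_at (0.80), Ta.8665.1.S1_at (0.79) and Ta.12042.1.S1_at (0.75). The shallowest were the paired probe sets Ta.28728.3.S1_x_at and Ta.28728.3.S1_at, with slopes of 0.08 each. Ta.28728.3.S1_at measured 11.37 in H10 replicate 1, a median of 12.00 and 12.84 in B68 replicate 3. Its signal was strong in every array and rose little, with a residual SD of only 0.18 log2 units around the line on hsp16.9A. Ta.8759.1.S1_at and Ta.1318.1.S1_at were as tight, with residual SDs of 0.19 and 0.20. At the other extreme stood the probe sets Ta.13575.1.S1_at (1.37), Ta.13575.1.S1_x_at (1.28), Ta.28631.1.S1_at (1.20) and Ta.5776.1.S1_at (1.17).

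**Figure D2:**
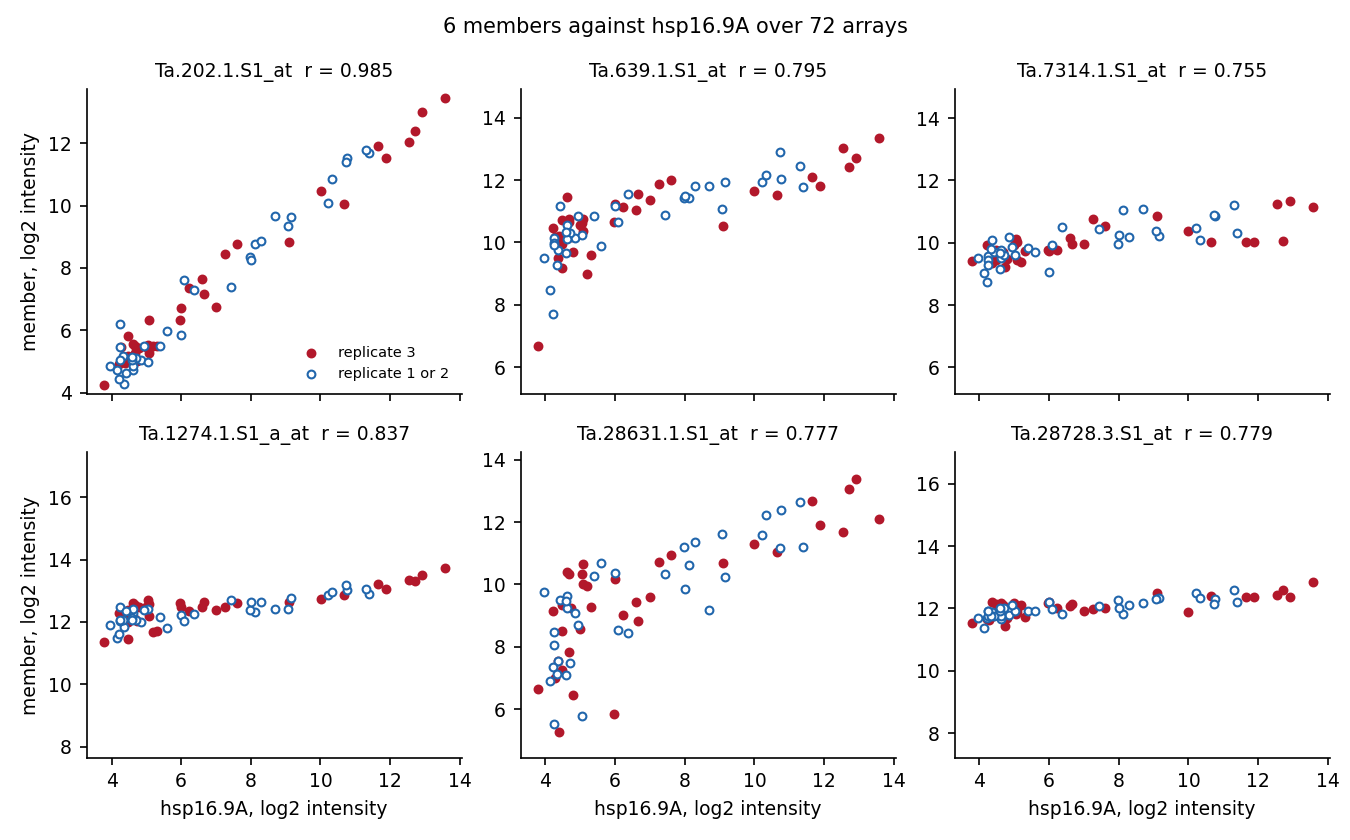
log2 intensity of 6 members (vertical axes, each 9.8 log2 units high) against that of hsp16.9A (horizontal axes) in 72 arrays, with replicate 3 filled and replicate 1 or 2 open. Ta.202.1.S1_at follows hsp16.9A almost unit for unit, while the lowest and highest arrays of Ta.28728.3.S1_at lie only 1.47 log2 units apart.

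The members also differed in where along the rise of hsp16.9A they rose. A quadratic curve on hsp16.9A was fitted to each member, and the percentage of the fitted rise reached at the middle of the hsp16.9A range was read from it, 50% being a straight line. The median was 40.7%. In 116 members the figure was under 50%, so most of the rise came in the arrays with the most hsp16.9A, and in 66 it was over 50%. TaAffx.18398.1.S1_at stood at -2.11%: its median was 3.97 and its lowest value 3.59 in B65 replicate 1, but it reached 9.08 in B68 replicate 3. Ta.2747.1.S1_at had 30.7%, with a median of 4.53 and a maximum of 11.60. Both are flat over most arrays and rise in the highest ones.

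The opposite shape was seen in TaAffx.79075.1.S1_at, which had 99.1%, with 7.00 in B65 replicate 1, a median of 9.39 and a highest value of 11.24 in F38a replicate 1. It rose over the lower arrays and levelled off. TaAffx.34482.1.S1_at, with 78.6%, had the second widest range of all members: 4.46 in H8 replicate 3, a median of 10.00 and 13.47 in B68 replicate 3. Ta.13575.1.S1_at had 80.96%, with 3.97 in B65 replicate 1, a median of 8.67 and 12.66 in B68 replicate 3. For such members Spearman's rank correlation can exceed r, as it did in 25 of the 182. Over all members Spearman's coefficient had a median of 0.763 and was at least 0.75 in 108.

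**Figure D3:**
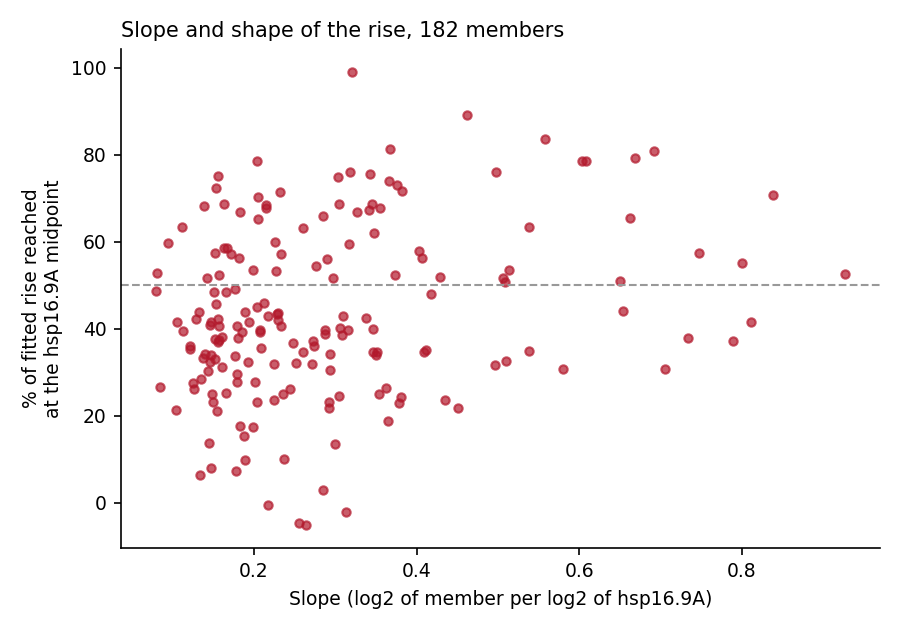
Slope on hsp16.9A (horizontal axis, log2 per log2) and percentage of the fitted rise reached at the middle of the hsp16.9A range (vertical axis) for each of the 182 members, with the dashed line at 50%. Of the points, 66 lie above the line and 116 below it, with both shapes at low and at high slopes.

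The 3 members with a gene symbol belong to 2 protein-coding genes, for which the supplied annotation gives no function. LOC543368 (Ta.639.1.S1_at, r = 0.795) was measured at 6.69 in H8 replicate 3, a median of 10.75 and 13.35 in B68 replicate 3. It was of the early-rising kind, with 75.7% of its fitted rise at the midpoint, and its 2 next lowest arrays were D15 replicate 1 at 7.69 and H10 replicate 1 at 8.47. LOC780670 was read by Ta.7314.1.S1_at (r = 0.755; 8.74 in D15 replicate 1, median 9.90, 11.33 in A77 replicate 3) and by Ta.7314.1.S1_x_at (r = 0.770; 9.15 in D15 replicate 1, median 10.19, 11.59 in F38a replicate 1). A further probe set of LOC780670, Ta.7314.1.S1_a_at, had r = 0.720 and was not a member, so this gene sat at the edge of the threshold.

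Other genes of the heat shock response could be looked up only by symbol. Among the symbols and synonyms, the small heat shock protein list found 1 probe set, hsp16.9A itself. The list of other chaperones found 1, the co-chaperone FKBP70 (r = 0.621, with 9.98 to 12.48 log2 units over the arrays), which was below the threshold. The heat shock factor list found none, and the ubiquitin list found 3 probe sets of the ubiquitin-conjugating enzyme gene UBC1, with r between 0.043 and 0.252. None of these passed the line test over all 36 lines given below.

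Probe sets built from the same sequence cluster, which share a number in their names, are described together. Their r is the value the rule used, and the clusters named here were picked for holding 3 or more members. The members fell into 152 clusters, and 20 clusters held several members, 50 members in all. All 6 probe sets of cluster Ta.1274 were members, with r between 0.796 and 0.851. All 6 had ranges between 2.38 and 2.95 log2 units and peaked in B68 replicate 3. All 4 of Ta.6123 were members too, with r between 0.916 and 0.933 and spans between 5.69 and 7.78 log2 units. The 4 probe sets of Ta.14478 had r between 0.810 and 0.870, and the 3 of Ta.2822 between 0.753 and 0.858. In Ta.7314, 3 of 5 probe sets were members. Probe sets of 1 cluster can share target sequence and are not independent evidence.

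Clusters were not always whole. Of 44 clusters with several probe sets on the array, 11 had every probe set among the members. The 44 held 68 probe sets that were not members, of which 44 had r of at least 0.5 and 10 had r under 0.25. The suffix _x_at was borne by 13.2% of the members and 11.1% of all probe sets. Names that start with TaAffx, by contrast, made up 30.2% of the members and 48.5% of all probe sets.

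At the threshold the last members inside were TaAffx.89710.1.S1_at (r = 0.7511) and Ta.1276.1.A1_at (r = 0.7513), and the first outside were Ta.28776.1.A1_at (r = 0.7496) and Ta.13214.1.S1_at (r = 0.7496). Ta.28776.1.A1_at spanned 6.91 log2 units and peaked in B68 replicate 3, the array where most members peaked. The number of probe sets changes steeply with the threshold, with 97 members at r of at least 0.8 and 31 at r of at least 0.9.

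Within the same line, the 2 arrays often differed widely. hsp16.9A differed by at least 2 log2 units between the 2 arrays in 20 of the 36 lines, 9 of them unmatched and 11 matched lines, with replicate 3 higher in 11 lines and lower in 9. In these 20 lines between 137 and 182 of the members moved the same way as hsp16.9A. The rule chose the members for following hsp16.9A over these same arrays, so such counts, here and below, are descriptions. In F38a, hsp16.9A measured 4.61 in replicate 3, against 11.32 in replicate 1, and all 182 members were lower in replicate 3 (median difference -1.46 log2 units). In A91 it measured 12.70 in replicate 3, against 4.86 in replicate 1, and 180 members were higher in replicate 3, by a median of 1.94. Both are unmatched lines.

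The widest differences among matched lines were 5.96 log2 units of hsp16.9A in DH95 and -5.69 in A88. In DH95, hsp16.9A measured 10.66 in replicate 3, against 4.70 in replicate 1, and 178 members were higher in replicate 3. In A88 it measured 5.07 in replicate 3, against 10.76 in replicate 1, and 179 members were lower. Both arrays were high in the lines at the top of the order: B68 had 13.57 in replicate 3 and 11.38 in replicate 1, A77 had 12.91 in replicate 3 and 10.33 in replicate 1, and F29 had 12.53 in replicate 3 and 9.15 in replicate 1. Both arrays were low in G13, with 4.26 in replicate 3 and 4.24 in replicate 1, and in H10, with 4.37 in replicate 3 and 4.14 in replicate 1. In 11 lines the 2 arrays lay within 0.5 log2 units of each other.

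**Figure D4:**
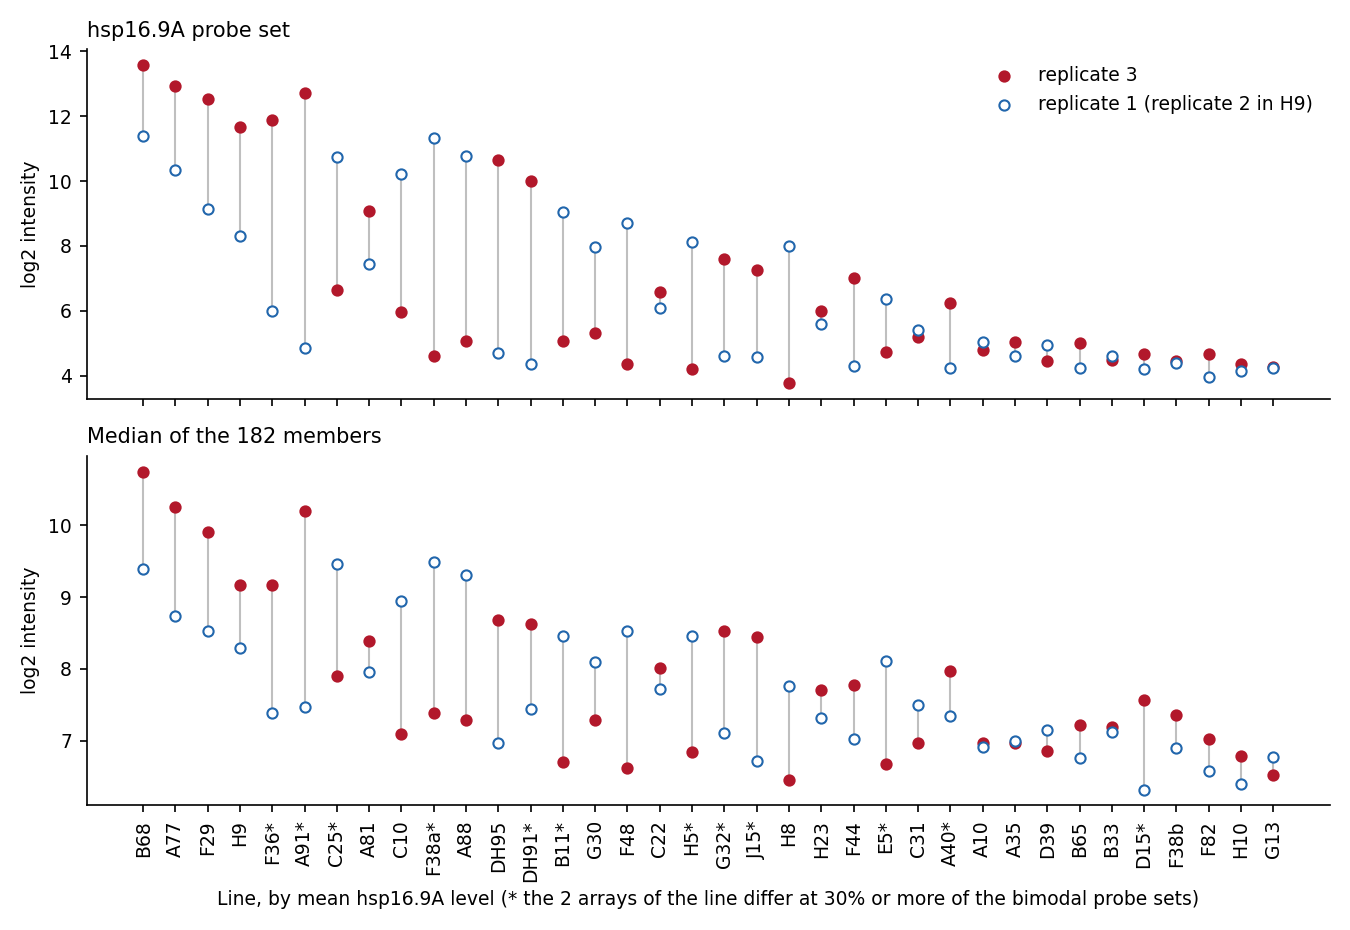
hsp16.9A (top) and the median of the 182 members (bottom), in log2 intensity, for the 2 arrays of each line, with replicate 3 filled and replicate 1 (replicate 2 in H9) open, and lines ordered by mean hsp16.9A level. The members' median repeats the order of the 2 arrays in the lines with a wide gap, such as A91 (10.20 in replicate 3, 7.47 in replicate 1), and asterisks mark the 12 unmatched lines.

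In limma's moderated F-test across all 36 lines with Benjamini-Hochberg adjustment over all probe sets, 1 of the 182 members had an adjusted p under 0.05, against a background of 2.54% of all probe sets. This count rested on single arrays: it was 22 without A91 replicate 1, 5 without A77 replicate 1, and 0 without any 1 of 7 other arrays, among them B68 replicate 3 and A77 replicate 3. At an unadjusted p under 0.05 there were 77 members (42.3%), against 13.9% of all probe sets. The median intraclass correlation, the share of variance that lies between lines, was 0.20 in the members and 0.0641 over all probe sets. The members all carry the pattern of hsp16.9A, so their number does not count independent results. With hybridisation day as a block 11 members were called (6.04%), against 2.65%.

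The member that passed was Ta.28631.1.S1_at (F = 2.94, adjusted p = 0.0311 by limma, intraclass correlation 0.458). In A77, the line with its highest mean, it measured 13.39 in replicate 3 and 12.21 in replicate 1. In H10, the line with its lowest mean, it measured 5.27 in replicate 3 and 6.91 in replicate 1. The 2 arrays of these lines do not overlap, but C10, with 5.84 in replicate 3 and 11.58 in replicate 1, spans most of that distance. The call was lost with hybridisation day as a block (adjusted p = 0.0741), with the 3' to 5' ratio as a covariate (adjusted p = 0.0572) and in a plain F-test (adjusted p = 0.0785). It was also lost when any 1 of 8 arrays was left out. It held in the other settings tried on all arrays, with the smallest adjusted p (0.000361) with the hsp16.9A level as a covariate, and in the 24 matched lines (adjusted p = 0.0123).

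In the 24 matched lines the same limma F-test called 47 of the 182 members (25.8%), against a background of 3.99%, and hsp16.9A itself had an adjusted p of 0.0193. The median intraclass correlation was 0.406 in the members, with a range of 0.0549 to 0.655, and 0.0724 over all probe sets. The members were chosen to follow hsp16.9A over these arrays, so both contrasts repeat 1 shared pattern. Their number does not count independent results. The lines were sorted by probe sets that are neither members nor hsp16.9A. Probe sets of the other left-out symbols, and those just under the threshold, were not kept out of that search. The split may therefore not be independent of the hsp16.9A pattern. The choice to leave 12 lines out was also made after the data had been seen. B68 had the highest mean of 147 members in these lines. Without B68 the test called 9 members, against 3.77% of all probe sets, without A77 it called 27, against 3.74%, without A77 replicate 3 alone also 27, against 3.58%, and without G13 replicate 3 it called 30, against 3.22%. With B68 replicate 3 alone left out, 14 members were called, against 3.63%. Without H8 replicate 1 the count was 74, against 4.51%.

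Among the members past the test in the matched lines, TaAffx.37239.1.S1_s_at had the smallest adjusted p (0.00144 by limma), with means of 8.15 in B68 and 3.97 in A35. Ta.14019.1.S1_s_at (adjusted p = 0.00257) measured 9.45 in B68 replicate 3 and 7.08 in B68 replicate 1. It measured 8.46 in F29 replicate 3 and 6.53 in F29 replicate 1, and in D39 it stayed at 4.31 in replicate 3 and 4.01 in replicate 1. TaAffx.114181.1.S1_at (adjusted p = 0.00365) was highest in another line, F29, with a mean of 6.56, against 3.99 in B33. Ta.202.1.S1_at (adjusted p = 0.0105) had means of 12.57 in B68 and 4.82 in H10. TaAffx.37239.1.S1_s_at is named for its place in this list and was chosen after its values were seen.

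**Figure D5:**
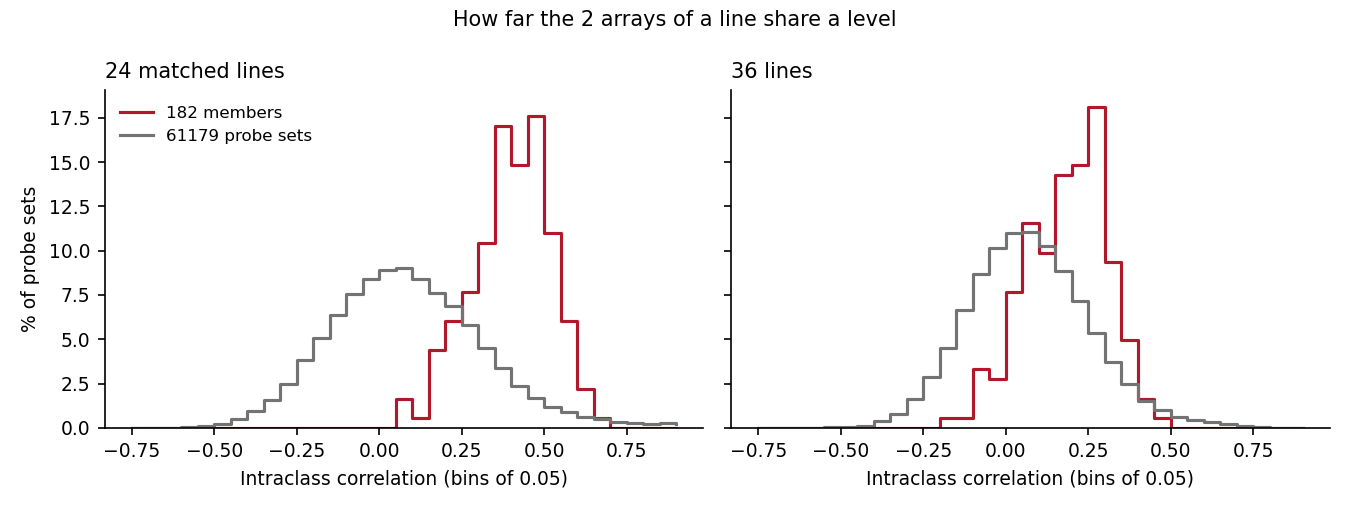
Distribution of the intraclass correlation between the 2 arrays of a line in the 182 members and in all 61179 probe sets (vertical axis, percentage of probe sets in bins of 0.05), over the 24 matched lines (left) and over all 36 lines (right). The members' median is 0.406 at the left and 0.20 at the right, against 0.0724 and 0.0641 for all probe sets.

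Replicate 3 was compared with replicate 1 next. Over the 35 lines that have both, with line as a block, limma called 0 of the 182 members, against a background of 0.616% of all probe sets higher and 1.98% lower in replicate 3. At an unadjusted p under 0.05 there were 12 members (6.59%), 10 higher and 2 lower, against 18.5% of all probe sets. The difference was positive in 136 members (74.7%), against 47.6% of all probe sets. The members were chosen to follow hsp16.9A, so these signs repeat 1 shared pattern and are not independent results. The smallest adjusted p was 0.0516, for TaAffx.26222.1.S1_at, which was 0.66 ± 0.19 log2 units (SE) higher in replicate 3. hsp16.9A averaged 6.72 in replicate 3 and 6.53 in replicate 1, a difference of 0.19 ± 0.56 (SE, adjusted p = 0.902). Only 2 lines had both arrays hybridised on the same day, and with hybridisation day as a block the difference for TaAffx.26222.1.S1_at became -0.0022 log2 units.

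With the hsp16.9A level as a covariate, which takes out what each member shares with hsp16.9A on a straight line, 6 members differed between replicates. Ta.681.1.S1_at, Ta.681.1.S1_x_at, TaAffx.92707.2.S1_at and TaAffx.26222.1.S1_at were higher in replicate 3 by 0.25 to 0.61 log2 units, 4 members against a background of 0.685%. Ta.345.2.S1_at and Ta.345.2.S1_x_at were lower, with differences of -0.35 and -0.36 log2 units, 2 members against 2.06%. All but TaAffx.26222.1.S1_at are named here after their values were seen. The rule chose the members on this covariate, which narrows their residual spread more than that of most probe sets. The members and the backgrounds are therefore not like for like. The 2 probe sets of Ta.681 share a cluster, as do the 2 of Ta.345, and are not independent evidence. Hybridisation day was not a block in this fit.

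Hybridisation day, read from the instrument files, covers 12 days with 1 to 8 arrays each. Limma's F-test across days called 0 of the 182 members, against a background of 41.3% of all probe sets. At an unadjusted p under 0.05 there were also 0 members, against 51.3% of all probe sets. The members vary far more from array to array within a line than others do, with a median residual SD of 0.74 log2 units against 0.22 over all probe sets. That SD comes from the line fit, not the day fit. A wide spread helps a probe set to reach a high r, so this contrast too follows in part from the selection. Once the hsp16.9A level was taken as a covariate, 54 members (29.7%) were called, against 46.1% of all probe sets. The rule chose the members on this covariate, so the 2 shares are not like for like. Leaving out A91 replicate 3 in the test without the covariate gave 2 calls, and leaving out B68 replicate 3 gave 1. Within the 8 days with at least 6 arrays the members' median r with hsp16.9A was 0.742 to 0.928. These values come from the arrays that chose the members, so nothing is read from them. On each of these days the lowest hsp16.9A level was at most 4.47 and the highest at least 9.15, so arrays with much and with little of it were hybridised together.

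RNA quality was followed by the mean log2 difference of 3' minus 5' signal over 7 pairs of control probe sets, called the ratio here. It lay between 0.509 and 1.79 log2 units, so 3' signal was on average the higher in every array. The 7 pairs include the CYP86 control, whose 3' and 5' probe sets had r of -0.601 and -0.219 with hsp16.9A. They also include the ubiquitin control, with r of 0.453 and 0.260. The ratio may therefore carry part of the hsp16.9A pattern, and it was not computed without these pairs. The correlation of the ratio with hsp16.9A was -0.165 over the 72 arrays. In limma's regression on the ratio 22 members fell with a rising ratio and 0 rose, against a background of 14% of all probe sets falling and 18.6% rising. The slope was negative in 172 members, against 37.7% of all probe sets. Here too the members repeat 1 shared pattern, so these counts are not independent results. The lowest adjusted p belonged to TaAffx.114181.1.S1_at (slope -1.07 ± 0.26 log2 units per log2 unit of the ratio, SE, adjusted p = 0.000859). With hybridisation day as a block 72 members (39.6%) had a falling slope past the threshold and 0 a rising one, against 11.6% and 8.32% of all probe sets. The part of RNA quality in the members' levels was not tested.

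The correlation that defines the members was also computed in subsets of the same arrays, as a description. In the replicate 3 arrays alone 181 of the 182 members kept r of at least 0.75, and in the replicate 1 arrays alone 134. After the mean of each day was taken away it was 181, and over the 36 line means 177. Between the 2 arrays of the same line, after the line means were taken away, it was 120. In the matched lines 175 kept r of at least 0.75. All these values come from the arrays that chose the members, so nothing is read from them.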

How the data were processed

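PolyA RNA of seed was labelled with biotin and hybridised to Affymetrix wheat arrays, 1 sample an array. The deposited values are linear intensities for 61290 probe sets, made by RMA per the submitters' processing notes, which include background correction, normalisation and summary of probes. Values were put on a log2 scale with a pseudocount of 0. The 111 AFFX control probe sets were left out, and 61179 were tested together. Lines were compared with limma 3.58.1 in R 4.3.3 (moderated F), replicates with line as a block, and the 3' to 5' ratio and hybridisation day in fits of their own. Tests were checked on simulated data with independent noise in each probe set, unlike the members, which move together. Of 100 probe sets changed by 1 residual SD the line test recovered 33, the replicate test 51, the day test 96 and the ratio test 100. Each test recovered all 100 changed by 3 residual SDs. A difference had to reach an adjusted p under 0.05 (Benjamini-Hochberg). The instrument report deposited with each array is of unit other, and only the hybridisation day, station and module were used. Symbols came from the supplied probe table (1273 probe sets with a symbol). The members and lists were chosen with earlier results of these data known. Named were members at the ends of r, range, slope, spread, intraclass correlation and replicate difference, those with a symbol, and clusters with at least 3 members. Normalisation, dim probe sets, blocks, the threshold and single arrays were varied.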

Additional observations from a re-analysis of the deposited data

How the results depend on the processing

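Quantile normalisation, median centring and a filter at a mean log2 of at least 5 gave 177, 188 and 164 members, and Spearman correlation 125. The replicate 3 arrays alone gave 282, 181 of them members as given. The threshold gave 287 members at 0.7 and 97 at 0.8. Leaving out 1 array gave 149 to 193, with the fewest without B68 replicate 3. The line test called 2 members after quantile normalisation, 3 after the filter, 11 with hybridisation day as a block, 0 in a plain F-test, 2 with hsp16.9A as a covariate and 47 without the 12 unmatched lines. Leaving out 1 array gave 0 to 22, with 22 without A91 replicate 1 and 5 without A77 replicate 1. With the replicate block it called 2. Over 595 pairs of lines the difference between replicates correlated with a median r of 0.037 (-0.663 to 0.625), and 229 pairs (38.5%) were over 0.1. The labels do not say what the replicate numbers share, and these correlations do not settle it.

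The replicate comparison called 2 members after the filter, 2 without the unmatched lines and 6 with hsp16.9A as a covariate, and 0 to 3 with 1 line left out, the 3 without G32. With hybridisation day as a block the differences of TaAffx.26222.1.S1_at (-0.0022), TaAffx.18398.1.S1_at (-0.411), Ta.28701.1.A1_at (-0.0831) and TaAffx.133249.1.A1_at (-0.939) turned negative. Their adjusted p by limma lay between 0.777 and 0.9995. Only 2 lines had both arrays on the same day, so day and replicate are hard to part, and the cause was not tested. The ratio test called 72 with hybridisation day as a block and 13 to 34 with 1 array left out, at the ends without H8 replicate 3 and D15 replicate 1. The day test called 54 with hsp16.9A as a covariate and 0 to 2 with 1 array left out.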

Other observations

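Among the 25 wheat control probe sets of the array, which were not candidates for membership, the 3' probe set of the CYP86 control went against the members. Its r with hsp16.9A over the 72 arrays was -0.601, and those of its middle and 5' probe sets were -0.337 and -0.219. The 3', middle and 5' probe sets of the ubiquitin control had r of 0.453, 0.291 and 0.260. Over the other controls r lay between -0.096 and 0.196, and these are descriptions with no test.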
